A study of Drosophila melanogaster with 2 samples.

Results

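Weak promoter peaks were places near gene starts where Taf1 was detected by chromatin immunoprecipitation with sequencing (ChIP-seq) in both replicates but below the authors' reproducibility threshold. They were peaks of the authors' pooled ranked list whose summit lay within 500 bp of the transcription start site (TSS) of a protein-coding gene, that overlapped no peak of the larger pooled thresholded list, and that overlapped a peak in the ranked list of each replicate. The members were therefore selected on measured values, namely the peak calls and the irreproducible discovery rate (IDR) behind the threshold, and their weaker signal and weaker agreement between replicates are a description and no finding. Of 60203 ranked peaks on the chromosome arms, 10487 had a promoter summit; 1459 of these overlapped a thresholded peak and 9028 did not. Of the 9028, 3359 overlapped a peak in both replicate lists and are the members. Another 1748 were matched in replicate 1 alone, 2975 in replicate 2 alone and 946 in neither. They are set beside the 1405 promoter peaks of the thresholded list, called thresholded promoter peaks here.

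The label "weak" held for nearly all members but not for every one. The lowest IDR score in the thresholded list was 830, which corresponds to a global IDR of 0.01, and 32 members had a score at or above it while overlapping no thresholded peak. These 32 had a median pooled signal of 87.2, against 30.1 over all members.

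The material was whole Drosophila melanogaster embryos aged 0 to 24 h, in 1 group with 2 biological replicates. The flies carried a transgene encoding a Taf1-eGFP fusion, and the precipitating antibody recognised GFP, so only the tagged protein was followed; no untagged or treated embryos were part of the comparison. Chromatin was sonicated to fragments of 200 to 800 bp, and positions are on the dm6 build. No read counts are in the peak lists used here, so depth is unknown, and the exact 95% intervals below cover counting error only. Because whole embryos of all these ages were mixed, binding in few cells and weak binding in many cells cannot be told apart.

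Taf1 is the large scaffold subunit of TFIID, the complex of the TATA-binding protein and its associated factors (TAFs) that recognises core promoters and helps RNA polymerase II to assemble there. Fly core promoters carry different short elements. The TATA box and the Initiator are typical of promoters of developmental and tissue-restricted genes, while the DNA replication-related element (DRE) and the Ohler motifs 1, 6 and 7 are typical of broadly expressed genes, many of which lie head to head with a neighbour. The GAGA sequence is bound by the GAGA factor, which is known for paused and developmental promoters.

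Promoters of 6 members show the elements that the comparison further on turns on, each from 150 bases before the TSS to 50 after it, on the gene's strand and 201 bases long, from the RefSeq assembly of the dm6 genome. Capitals mark the element, and each window belongs to the member of highest signal that has the element, with 1 chromosome arm left out. Positions count the TSS as 0, and other elements in the same window are not marked.
pont: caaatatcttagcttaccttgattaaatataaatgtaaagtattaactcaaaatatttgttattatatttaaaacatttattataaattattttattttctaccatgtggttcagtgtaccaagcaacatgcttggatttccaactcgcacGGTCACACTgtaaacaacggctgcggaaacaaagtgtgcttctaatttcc
Nuak: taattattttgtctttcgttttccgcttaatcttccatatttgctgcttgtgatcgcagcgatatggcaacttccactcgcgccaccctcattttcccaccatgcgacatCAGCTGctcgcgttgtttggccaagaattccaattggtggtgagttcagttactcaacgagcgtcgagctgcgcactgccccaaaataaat
kibra: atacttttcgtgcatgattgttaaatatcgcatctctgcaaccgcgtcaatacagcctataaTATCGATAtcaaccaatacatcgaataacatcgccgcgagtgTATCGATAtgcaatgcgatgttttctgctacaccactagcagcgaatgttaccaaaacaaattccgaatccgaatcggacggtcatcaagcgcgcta
Gnpnat: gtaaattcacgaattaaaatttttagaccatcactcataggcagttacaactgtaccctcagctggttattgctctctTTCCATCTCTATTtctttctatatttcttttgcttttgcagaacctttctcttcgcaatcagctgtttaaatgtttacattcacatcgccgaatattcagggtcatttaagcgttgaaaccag
frj: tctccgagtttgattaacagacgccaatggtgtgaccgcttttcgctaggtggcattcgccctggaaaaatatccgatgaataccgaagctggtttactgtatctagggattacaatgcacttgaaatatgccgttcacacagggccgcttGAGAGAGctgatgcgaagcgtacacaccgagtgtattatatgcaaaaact
neur: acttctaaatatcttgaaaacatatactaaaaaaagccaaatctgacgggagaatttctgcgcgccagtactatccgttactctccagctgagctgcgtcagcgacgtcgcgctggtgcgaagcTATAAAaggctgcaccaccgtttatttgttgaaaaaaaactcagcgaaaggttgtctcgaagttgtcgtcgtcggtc

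The pont window (chr3R:10261973-10262173, plus strand) carries Ohler motif 1 starting at position 1, the base after the TSS; pont encodes Pontin, an ATPase of chromatin remodelling complexes. Next to it on the arm, Nuak (chr3R:10264156-10264356, plus strand), which encodes a kinase related to AMPK, has the E-box called Ohler motif 5 starting at -40. The kibra window (chr3R:14724211-14724411, minus strand) holds 2 copies of the DRE, the first of them starting at -88; kibra acts upstream of the Hippo pathway. Ohler motif 7 lies at -72 in Gnpnat (chr3R:29738125-29738325, plus strand), a gene of hexosamine synthesis, and a GAGA run lies at position 1 in frj (chr2L:6455902-6456102, plus strand). In neur (chr3R:9033681-9033881, minus strand), which encodes the ubiquitin ligase Neuralized of the Notch pathway, a TATA box starts at -26. The summits of pont, Nuak, kibra, Gnpnat and neur lay upstream of these TSSs, at -116, -118, -144, -166 and -200, and that of frj lay downstream, at 96.

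The pooled signal of the members is the authors' peak-calling value, whose scale no source used here states. It ran from 2.01 to 628 with a median of 30.1 and quartiles of 21.2 and 39.2. Thresholded promoter peaks ran from 2.39 to 1304 with a median of 95 and quartiles of 68.8 and 148. The range of the members lay almost wholly within that of thresholded promoter peaks, which reached higher, while the spans between the quartiles did not overlap. In replicate 1 the median was 19.1 at members and 47.7 at thresholded promoter peaks, and in replicate 2 it was 14.5 at members and 53.1 at thresholded promoter peaks.

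The strongest member, at larp (chr3R:28326469-28326707), reached 289 in replicate 1 and 337 in replicate 2; larp encodes an RNA-binding protein that regulates translation. Its summit was intronic, at -331 from the nearest TSS. The next, between CG18428 and eIF4EHP (chr3R:24109037-24109337), had 210 in replicate 1 and 266 in replicate 2; eIF4EHP encodes a cap-binding repressor of translation. Both were among the strongest peaks of the whole experiment, ranking 25 and 77 in the replicate 1 list and 39 and 70 in the replicate 2 list. CG4297 had 114 in replicate 1 and 176 in replicate 2. The zinc-finger factor gene cbt had 104 in replicate 1 and 141 in replicate 2. CG6966 had 50 in replicate 1 and 104 in replicate 2. These 5 members were also the only ones narrower than the usual peak width of 316 bp, at 239 bp (larp), 301 bp (CG18428), 152 bp (CG4297), 116 bp (cbt) and 97 bp (CG6966).

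The others of the 12 strongest members had the usual width and signals of the same order in the replicates. The peak at pont had 104 in replicate 1 and 110 in replicate 2, and that at Nuak 83.3 in replicate 1 and 91.4 in replicate 2. At isoQC, a glutaminyl cyclase gene, replicate 1 was the higher one, with 79.4 against 51.0 in replicate 2. The peak at kibra had 59.8 in replicate 1 and 60.7 in replicate 2, and that at Gnpnat had 52.4 in replicate 1 and 59.7 in replicate 2. Pgk, which encodes the glycolytic enzyme phosphoglycerate kinase, had 54.9 in replicate 1 and 64.3 in replicate 2, and crp, a bHLH factor gene, had 47.5 in replicate 1 and 66.7 in replicate 2. All 12 of these summits were upstream of the nearest TSS, from -68 at crp to -404 at cbt.

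Members at the median signal looked different. The peak at ems, a head gap gene, had 19.4 in replicate 1 and 9.74 in replicate 2, with its summit 83 bp downstream in the 5' UTR. The peak at msps, which encodes a microtubule polymerase, had 22.1 in replicate 1 and 9.94 in replicate 2, and that at CG5160 had 14.3 in replicate 1 and 13.3 in replicate 2. Ldsdh1 had 20.1 in replicate 1 and 11.1 in replicate 2, and CG1572 had 15.7 in replicate 1 and 10.7 in replicate 2. Replicate 1 was the higher one in each of these 5.

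At the bottom of the list, a low pooled signal did not always mean a low value in the replicates. The peak at dao had a pooled signal of 2.011 but overlapped peaks of 21.5 in replicate 1 and 37.1 in replicate 2. That at CG8312 had a pooled signal of 2.039 and overlapped peaks of 11.5 in replicate 1 and 18.9 in replicate 2. PpN58A, Cpr76Bd and Nep4 had 12.5, 21.5 and 14.7 in replicate 1 and 9.93, 4.70 and 6.34 in replicate 2. Ranked by pooled signal into 4 groups of nearly equal size, 571 of the 840 members of the lowest group overlapped a stronger peak of the pooled ranked list, against 3 in the highest group, so the replicate value beside such a member can belong to its neighbour. Over all members, 626 overlapped a stronger ranked peak, and 977 shared their replicate 1 match and 874 their replicate 2 match with another member.

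Peaks just outside and just inside the threshold had signals in the same range. Under the lowest thresholded score, the 5 members of highest score, with ties placed by signal and the choice made after the values were seen, were at spri (score 829, signal 65.51), shop (829, 60.19), GlcAT-P (825, 49.55), kdn (825, 46.86) and Pbgs (825, 39.91). The 5 promoter peaks of lowest score inside the thresholded list were at yip2 (score 830, signal 47.78), Mgstl (831, 47.90), kel (834, 51.62), SCaMC (835, 42.96) and Mettl5 (836, 55.50). SCaMC and Mettl5 overlapped no peak of the replicate 2 ranked list. At the far end, 29 members tied at the maximum score of 1000, among them larp, CG18428, CG4297, cbt and pont, which are also at the cap of 5.0 of the deposited −log10 global IDR.

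The replicates weighed the members differently from the thresholded promoter peaks. The log2 ratio of the signal in replicate 2 over replicate 1 had a median of -0.43 at members (SD 0.77 across peaks) and 0.18 at the 1312 thresholded promoter peaks found in both ranked lists (SD 0.65). Replicate 2 was higher at 27.3% of members and at 62.8% of thresholded promoter peaks. The median ratio at members was -0.62 in the lowest of the 4 signal groups, -0.54 and -0.35 in the next, and -0.20 in the highest. The ranked lists differed in length: that of replicate 1 held 33551 peaks with a lowest signal of 11.3, and that of replicate 2 held 95427 with a lowest signal of 2.0. A member could therefore reach down to a much lower value in replicate 2, and the part of this floor in the ratio was not tested. Spearman's rho between the replicates, across peaks that are not independent, was 0.21 at members and 0.67 at thresholded promoter peaks; the IDR threshold that separates the groups itself measures agreement in rank, so this is a description of the selection.

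**Figure D1:**
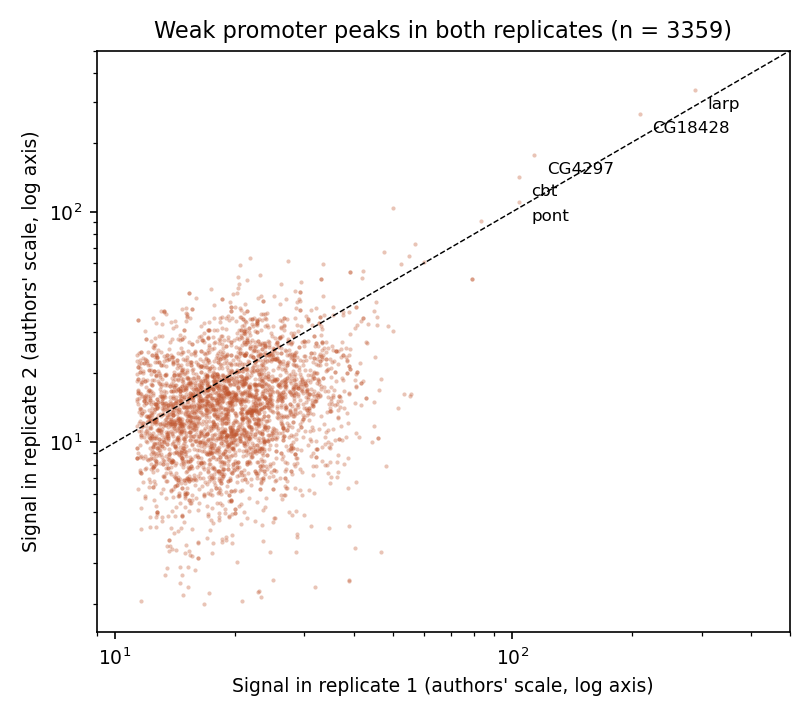
Signal of each weak promoter peak in replicate 1 (horizontal axis) and replicate 2 (vertical axis), both on the authors' scale and log axes; each point is 1 of 3359 peaks and the dashed line marks equal values. Most points lie below the line, replicate 2 being higher at 27.3%, no replicate 1 value is below 11.3, and the 5 named peaks stand apart at the upper right.

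The extremes of this ratio were modest peaks. The largest was at Moe, the gene of the membrane linker Moesin, with 11.4 in replicate 1 and 33.9 in replicate 2 (log2 ratio 1.57); its 2 members shared these replicate peaks. Neighbouring members at Sfmbt, a Polycomb group gene, and CG5439 shared values of 15.3 in replicate 1 and 44.7 in replicate 2 (1.54). At the other end, slgA, a proline dehydrogenase gene, had 38.8 in replicate 1 and 2.52 in replicate 2 (-3.95), as CG5953 had 38.8 and 2.51. The member at CG5953 nevertheless overlapped a peak of the thresholded list of replicate 2. Diap1, which encodes an inhibitor of apoptosis, had 46.8 in replicate 1 and 3.35 in replicate 2 (-3.80), and Sap130 had 31.9 in replicate 1 and 2.35 in replicate 2 (-3.76).

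Summits of the members did not share the upstream position of thresholded promoter peaks. The rule used the distance to the TSS but not its side. Of the 3359 members, 1683 had their summit upstream of the nearest TSS, a share of 50.1% (48.4 to 51.8), against 81.9% (79.7 to 83.8) of thresholded promoter peaks. The difference was -31.7 percentage points (95% Newcombe interval -34.3 to -29.0). Of all bases within 500 bp of a TSS, 45.0% lay upstream of the nearest one. The replicates' own summits gave shares of 51.1% and 51.5% at members, and 81.6% and 82.1% at thresholded promoter peaks, so the groups differed by far more than the replicates did. The median position was -1 at members (quartiles -161 and 194) and -110 at thresholded promoter peaks.

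**Figure D2:**
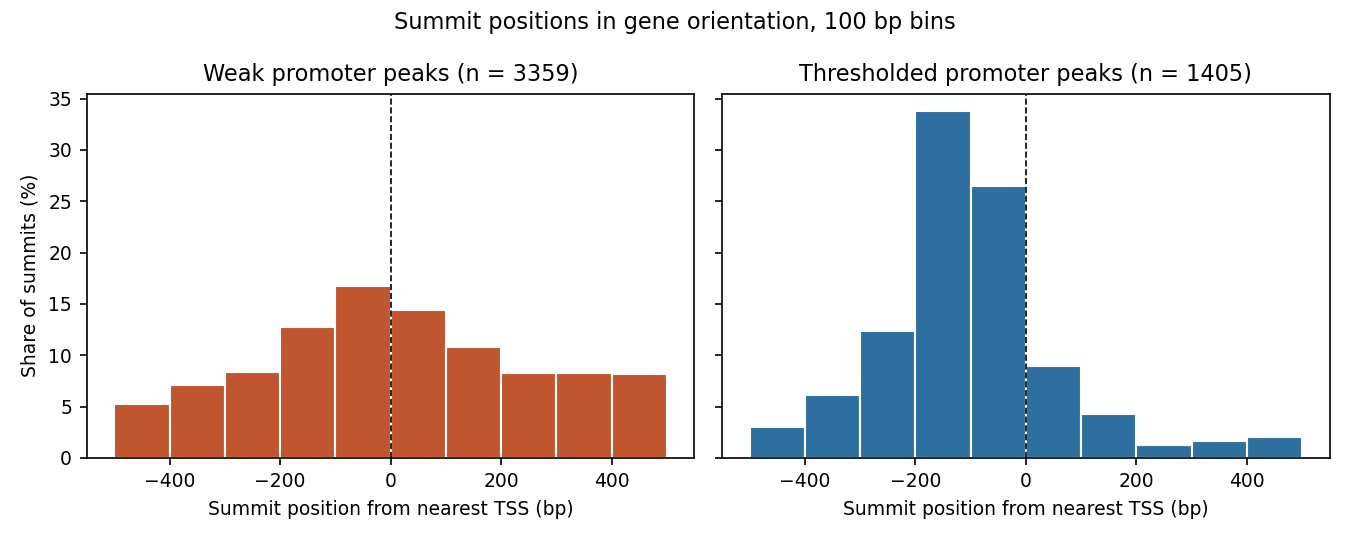
Share of summits (vertical axis, %) by position from the nearest TSS in gene orientation (horizontal axis, bp, bins of 100 bp) for weak promoter peaks on the left and thresholded promoter peaks on the right; the dashed line is the TSS. The weak peaks form a low hump with at most 16.7% in a bin, just upstream of the TSS, and the thresholded peaks a high one with 33.8% between -200 and -100.

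Within the members, the side followed the signal. From the lowest to the highest of the 4 signal groups, 42.3%, 44.1%, 49.4% and 64.6% of summits were upstream, and the median position was 52, 31, 2 and -64. The highest group exceeded the lowest by 22.4 percentage points (17.7 to 26.9), and it was still below the thresholded promoter peaks (difference -17.2 points, -21.0 to -13.4). Among ranked promoter peaks that were not members for want of a match in a replicate, the share was 45.9% of those in replicate 1 alone, 40.7% of those in replicate 2 alone and 44.2% of those in neither. Among the 1770 members with a single TSS within 1 kb of the summit the share was 50.6%, and among the 2733 that overlapped no stronger ranked peak it was 51.1%.

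The annotation under the summits differed in the same way. Coding sequence held 17.7% of member summits (593) and 0.712% of thresholded promoter summits (10), a difference of 16.9 points (15.6 to 18.3); it makes up 25.8% of the bases in the windows. By signal group, from lowest to highest, the coding share was 21.5%, 24.3%, 17.4% and 7.38%. Intergenic sequence held 27.4% of member summits and 54.0% of thresholded ones, the 5' UTR 25.8% of members and 16.5% of thresholded ones, and introns 25.8% of members and 25.6% of thresholded ones. Base composition moved with these classes. Within 150 bp of the summit the median GC content was 43.5% at members and 36.5% at thresholded promoter peaks. It was 39.9% at upstream members, 46.8% at downstream members and 51.5% at members with a coding summit. The part of base composition in the positions was not tested.

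**Figure D3:**
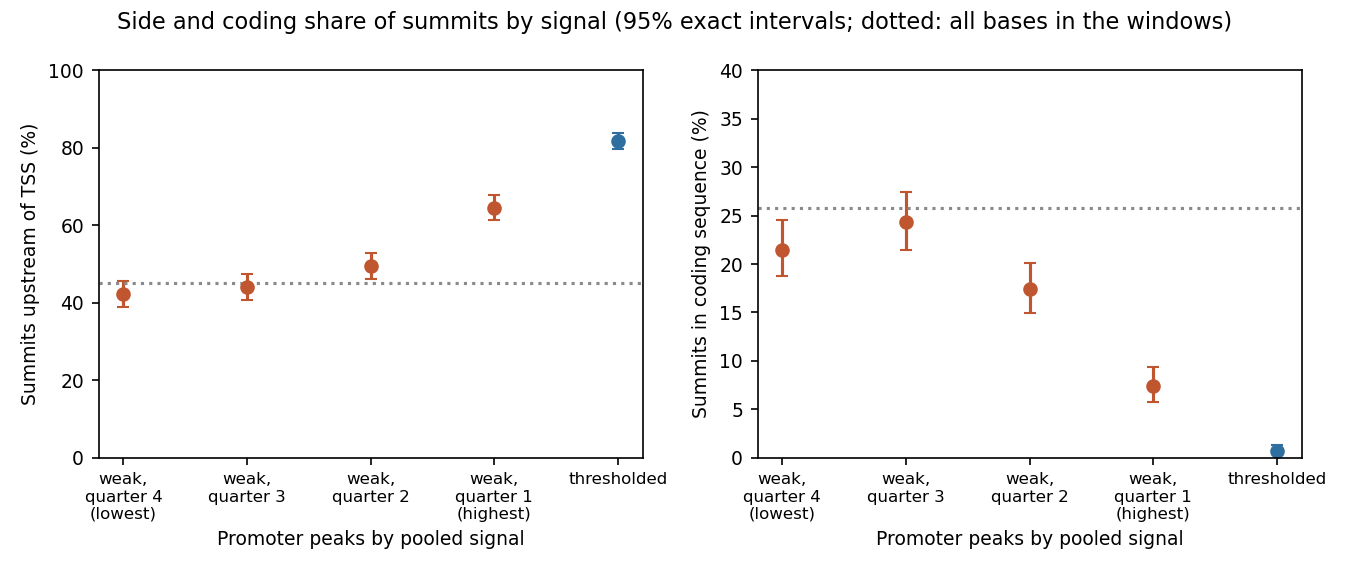
Share of summits upstream of the TSS (left, %) and in coding sequence (right, %) for the weak promoter peaks in 4 groups of pooled signal and for thresholded promoter peaks; points are shares, bars exact 95% intervals and dotted lines the same shares over all bases within 500 bp of a TSS. The upstream share climbs to 64.6% in the highest weak group against 81.9% of thresholded peaks, and the coding share falls to 7.38% against 0.712%.

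Some of the stronger members kept a downstream or coding summit; these were picked after their values were seen. Rel, which encodes the Relish factor of the immune response, had 50.2 in replicate 1 and 30.4 in replicate 2, with its summit 97 bp downstream in the 5' UTR. Bicra had 33.4 in replicate 1 and 43.3 in replicate 2, 345 bp downstream in an intron, and Ppa had 37.6 and 36.7 in replicates 1 and 2, 153 bp downstream. Among coding summits, Fatp1, a fatty acid transporter gene, had 23.0 in replicate 1 and 42.2 in replicate 2. Alas, the gene of the enzyme that starts haem synthesis, had 30.1 in replicate 1 and 23.6 in replicate 2.

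The replicate summits matched to members lay farther apart than those matched to thresholded promoter peaks. The distance between the replicate summits had a median of 78 bp at members and 25 bp at thresholded promoter peaks, and it was 50 bp or less at 37.6% of members and 74.1% of thresholded ones. From the lowest to the highest signal group the median distance was 130, 97, 69 and 44 bp. Each replicate summit is that of the strongest overlapping peak. In the lowest group 571 of 840 members overlapped a stronger ranked peak, against 3 in the highest, so the matched summit can belong to a neighbour. The part of such neighbours in the distances was not tested. The threshold itself selected on agreement in rank between replicates. Members whose replicate summits lay within 50 bp had 51.5% upstream and the others 49.2%, a difference of 2.31 points whose interval (-1.18 to 5.79) includes 0.

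Members were less often than thresholded promoter peaks at head-to-head genes, those with a diverging protein-coding neighbour whose TSS is within 1000 bp. This held for 27.5% of members (26.0 to 29.0) and 45.6% of thresholded promoter peaks, a difference of -18.1 points (-21.1 to -15.1). The highest signal group had 35.1%, and the others, from lowest upward, 26.3%, 24.1% and 24.4%. Counted by gene rather than by peak, 42.9% of genes with weak peaks only were head-to-head, against 66.4% of thresholded genes, 26.3% of genes with no ranked peak and 36.2% of all genes. The side of the summit differed from the thresholded peaks in both kinds of gene. At head-to-head genes 45.1% of members and 80.9% of thresholded peaks were upstream, and at lone genes 52.0% of members and 82.6% of thresholded peaks.

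Over the arms, the members were spread nearly as the genes are. Arm 3R held 26.9% of them and 24.5% of protein-coding genes, and arm 2L held 17.2% of members and 19.0% of genes; 2R, 3L and X held 20.2%, 19.0% and 16.6%. Chromosome 4, with 80 protein-coding genes, held no member and 4 thresholded promoter peaks, and Y held none of either. The rule left out peaks that overlap a thresholded one, so some distance from these is built in. The median distance from a member to the nearest thresholded summit was 10550 bp, and 244 members (7.26%) were within 1 kb of one. Of promoter peaks outside the threshold and not matched in both replicates, 3.81% to 7.67% were. Of thresholded promoter peaks, 16.7% were within 1 kb of another thresholded summit. At 394 members the gene also had a thresholded promoter peak. Of the genes nearest to a member, 1975 had 1 member, 505 had 2 and 86 had 3; the highest number was 6.

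Few members were in the authors' other strict lists. The rule did not use these lists, but it removed every peak that overlaps the larger thresholded list. Most conservative peaks overlap that list, so a low count there is largely set by the rule. The thresholded list of replicate 1 held 8 members (0.238%) and that of replicate 2 held 74 (2.20%), with 1 member in both. The conservative pooled list held 68 (2.02%), although it is the stricter of the pooled thresholded lists; of its 2180 peaks on the arms, 133 overlapped no peak of the larger list. The 136 members in any of these lists had a median signal of 56.0, 76.5% upstream summits (68.4 to 83.3) and 52.2% at head-to-head genes. All 3359 members were also in the second pooled ranked list. Of the promoter peaks outside the threshold, it held 58.7% of those matched in replicate 1 alone, 37.5% in replicate 2 alone and 30.3% in neither. The match in both replicates that the rule required therefore bears on this count.

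Core promoter elements were searched at 1 TSS per gene, the one nearest to the summit, or the most upstream one where there was no summit. Comparisons with genes that have no ranked peak, and with all genes, thus set TSSs chosen in different ways side by side. The part of this choice in the differences was not tested. Over 2720 genes with a member and no thresholded promoter peak, several elements had shares between those of the 1850 genes with a thresholded peak and the 6060 with no ranked promoter peak. Ohler motif 7 was present at 10.4% of genes with weak peaks only, 14% of thresholded genes, 5.07% of genes with no ranked peak and 7.74% of all protein-coding genes. The weak minus thresholded difference was -3.56 points (-5.54 to -1.63), and the weak set was 5.38 points above the genes without a peak (4.14 to 6.69). The E-box CAGCTG (Ohler motif 5) was present at 15.3% of genes with weak peaks only, 19.5% of thresholded genes, 12.2% of genes with no ranked peak and 14.3% of all genes. The weak minus thresholded difference was -4.18 points (-6.46 to -1.95). At head-to-head genes the E-box was at 16.7% of weak and 22.4% of thresholded genes, and at lone genes at 14.3% of weak and 13.8% of thresholded genes.

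The TATA box TATAAA, searched from -45 to -15 on the gene strand, ran the other way. It was present at 6.40% of genes with weak peaks only, 2.97% of thresholded genes, 11.5% of genes with no ranked peak and 8.96% of all genes, so the weak set was 3.42 points above the thresholded one (2.20 to 4.62). Among genes with weak peaks only it was at 3.26% of head-to-head and 8.75% of lone genes, and among thresholded genes at 2.85% of head-to-head and 3.22% of lone ones. The Initiator, TCAGTN or TCATTN from -10 to 10, was at 17.5% of genes with weak peaks only, 14.9% of thresholded genes, 15.1% of genes with no ranked peak and 16.3% of all genes. The weak minus thresholded difference was 2.62 points (0.429 to 4.76). Split by arrangement, the Initiator was at 23.5% (21.4 to 25.7) of weak and 27.2% (23.7 to 30.9) of thresholded lone genes. At head-to-head genes it was at 9.61% (7.97 to 11.4) of weak and 8.71% (7.19 to 10.4) of thresholded ones. The order of the shares turned at lone genes, but the intervals overlapped in both arrangements. The TCT initiator, CTTTTT or CTTTCT in the same window, was at 1.25% of genes with weak peaks only, 1.46% of thresholded genes and 1.32% of all genes.

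For the other elements the differences between weak and thresholded genes, over both arrangements together, were under 2 points. At head-to-head genes the DRE was at 14.2% of weak and 12.2% of thresholded genes. Ohler motif 1 was there at 9.86% and 7.40%, and GAGAGAG at 3.77% and 2.36%. The order turned at lone genes, with 4.57% and 6.28%, 3.67% and 6.12%, and 8.69% and 14.5%. Weak and thresholded intervals overlapped except for GAGAGAG at lone genes. The DRE (TATCGATA) was at 8.68% of genes with weak peaks only, 10.2% of thresholded genes, 6.67% of genes with no ranked peak and 7.76% of all genes; the weak minus thresholded difference was -1.54 points, with an interval of -3.31 to 0.173. Ohler motif 1 (GGTCACACT) was at 6.32% of genes with weak peaks only, 6.97% of thresholded genes, 4.47% of genes with no ranked peak and 5.23% of all genes (weak minus thresholded -0.649, -2.17 to 0.803). GAGAGAG was at 6.58% of genes with weak peaks only, 6.43% of thresholded genes, 3.84% of genes with no ranked peak and 4.88% of all genes (weak minus thresholded 0.148, -1.34 to 1.58). Ohler motif 6 was at 1.54% of genes with weak peaks only, 2.43% of thresholded genes and 1.67% of all genes (weak minus thresholded -0.888, -1.79 to -0.0763). The Zelda site CAGGTAG was at 1.07% of genes with weak peaks only, 0.919% of thresholded genes and 1.19% of all genes. Apart from TATA, Initiator and TCT, the search covered both strands from -150 to 50, and none of the patterns of fixed letters contains another.

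**Figure D4:**
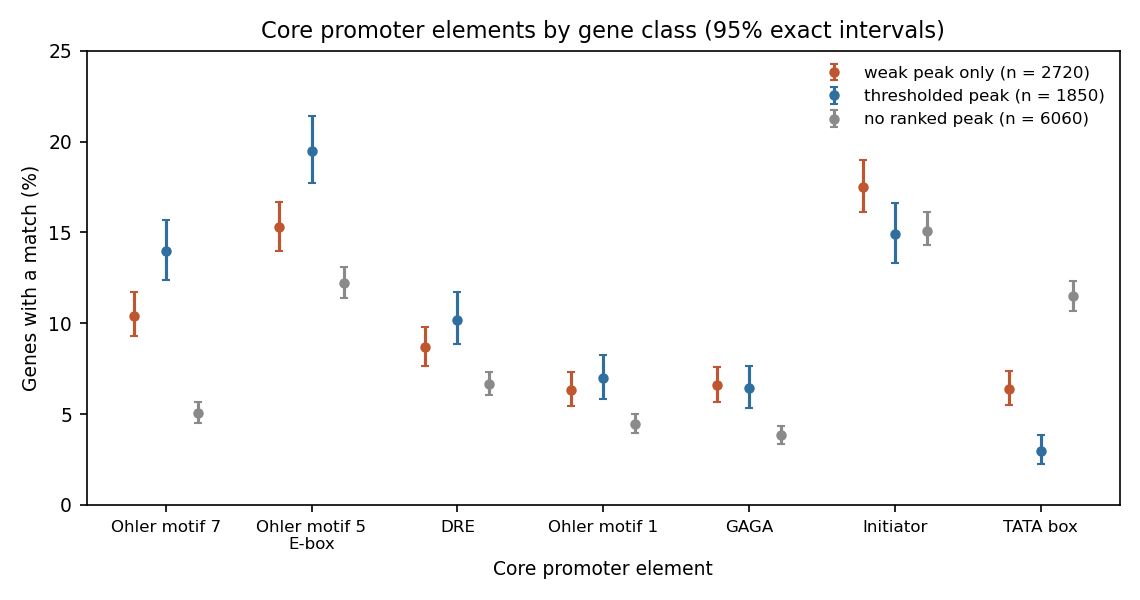
Share of genes (vertical axis, %) with a match to each of 7 core promoter elements, for 2720 genes with a weak peak only, 1850 genes with a thresholded peak and 6060 genes with no ranked promoter peak; points are shares and bars exact 95% intervals. For Ohler motif 7 and the E-box the weak set lies between the others, and for TATA its 6.40% lies between 2.97% at thresholded genes and 11.5% at genes with no ranked peak.

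For Ohler motif 7, TATA and a combined share of 4 elements, the highest signal group was the nearest to the thresholded genes. This did not hold for every element. GAGAGAG was at 7.20% of the highest group and 6.47% of the next, against 6.43% of thresholded genes. The Initiator was at 16.8% of the highest group and 13.1% of the lowest, against 14.9% of thresholded genes. Any of DRE and Ohler motifs 1, 6 and 7 was present at 23.7% of genes with weak peaks only, 29.5% of thresholded genes, 15.6% of genes with no ranked peak and 19.7% of all genes. By signal group, from lowest to highest, the share was 16.8%, 17.5%, 22.3% and 31.8%. Ohler motif 7 alone was at 7.41%, 6.26%, 7.50% and 17.1%, and TATA at 7.41%, 7.37%, 8.28% and 3.76%. Head-to-head genes were 34.0%, 35.5%, 39.5% and 54.2% of these groups, 66.4% of thresholded genes and 36.2% of all genes, and the element shares differed between the arrangements. At head-to-head genes Ohler motif 7 was at 16.5% of weak, 17.7% of thresholded and 13.3% of all genes, and at lone genes at 5.92% of weak, 6.76% of thresholded and 4.58% of all genes. GAGAGAG at lone genes was at 8.69% of weak, 14.5% of thresholded and 5.73% of all genes.

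Counted by gene, 3016 protein-coding genes (21.6% of 13968) had a member within 500 bp of any of their TSSs, and 296 of them had a thresholded promoter peak as well. A member without a thresholded peak was found at 2720 genes, 19.5% of all protein-coding genes (18.8 to 20.1), and a thresholded peak at 1850 genes, 13.2%. Another 3338 genes (23.9%) had other ranked promoter peaks only, and 6060 (43.4%) had none. These shares are the background for the gene lists that follow. The share with weak peaks only rose with the number of TSSs of a gene, being 16.5% at genes with 1 TSS, 24.3% with 2, 34.2% with 3 and 38% with 4 or more; the part of TSS number in the list shares was not tested. The thresholded share did the same, at 9.90%, 19.4%, 26.7% and 33.9%.

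Weak peaks without a thresholded one were found at over 30% of the genes of several lists, among them neuronal, Rab, proneural and dorsoventral genes. Of 36 neuronal function genes, 14 (38.9%, 23.1 to 56.5) had a weak peak only and 2 a thresholded peak, against 19.5% and 13.2% of all genes. When only the most upstream TSS of each gene counted, the share was 30.6% (16.3 to 48.1), an interval that includes the 17.9% of all genes. The NSF ATPase gene comt had 35 in replicate 1 and 21.1 in replicate 2, nAChRalpha2, an acetylcholine receptor subunit gene, had 20.9 and 26.6 in replicates 1 and 2, and Syt1, the gene of the synaptic vesicle calcium sensor, had 16.7 and 28.0. Of 37 proneural, Notch and neuroblast genes, 13 (35.1%, 20.2 to 52.5) had a weak peak only and 6 a thresholded peak. They included neur with 55.7 in replicate 1 and 16.2 in replicate 2, Su(H), the DNA-binding effector of Notch, with 26.3 and 33.7 in replicates 1 and 2, and grh with 20.8 and 18.9. Of 33 dorsoventral genes, 11 (33.3%, 18.0 to 51.8) had a weak peak only and 3 a thresholded peak. They included ush with 38.9 in replicate 1 and 16.3 in replicate 2, the receptor gene Tl with 21.9 and 13.9, and pip with 24.3 and 18.8.

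Rab GTPases, the switches of vesicle transport, had a weak peak only at 14 of 38 genes (36.8%, 21.8 to 54.0) and a thresholded peak at 6. RabX1 had 17.8 in replicate 1 and 39.4 in replicate 2, RabX4 had 29.4 and 19.2, and Rab7 had 26.4 and 20.9. Of 39 Polycomb, trithorax and remodelling genes, 12 (30.8%, 17.0 to 47.6) had a weak peak only and 8 a thresholded peak. Besides Sfmbt, dom had 35.2 in replicate 1 and 26.2 in replicate 2 and Bap60 had 20.1 and 26.1. Of 49 signalling genes, 15 (30.6%, 18.3 to 45.4) had a weak peak only and 8 a thresholded peak, with foxo at 41.7 in replicate 1 and 18.1 in replicate 2, the kinase gene Akt at 22.8 and 32.4 and Rheb at 28.7 and 23.5. The intervals of the neuronal, Rab and proneural lists lay above the 19.5% of all genes, and those of the dorsoventral, Polycomb and signalling lists included it. For neuronal genes this was lost at the most upstream TSS, as above, and without replicate 2 (25.5 to 59.2, against 27.7% of all genes). For proneural genes it was lost at 50% overlap (13.8 to 44.1, against 16.9%), with the 1000 bp window (20.2 to 52.5, against 27.3%), without replicate 1 (29.5 to 63.1, against 33.1%) and without replicate 2 (22.5 to 55.2, against 27.7%).

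Translation genes were split between the classes. Of 93 cytoplasmic ribosomal protein genes, 19 (20.4%, 12.8 to 30.1) had a weak peak only, close to the 19.5% of all genes, and 41 (44.1%) had a thresholded peak. A gene with a thresholded peak cannot count as weak only, which lowers this share by construction. Of the 52 without a thresholded peak, 36.5% (23.6 to 51.0) had a weak one, against 22.4% of all genes without a thresholded peak. The same share was 38.2% (25.4 to 52.3) at mitochondrial ribosomal protein genes and 38.1% (23.6 to 54.4) at translation factor genes. It was not particular to translation, being 43.8% at Rab, 41.9% at proneural, 41.2% at neuronal and 38.7% at Polycomb genes. Other lists were lower, such as oxidative phosphorylation at 15.6% and proteasome at 14.3%. At the cytoplasmic ribosomal protein genes the weak peaks had a median log2 ratio of 0.25, with replicate 2 higher at 12 of 19. The median over all genes with weak peaks only was -0.36. Their median signal was 49.4, against 34.2 over all these genes, and among members the ratio rose with signal. Higher medians stood at the insulator (0.49) and spliceosome (0.57) lists, each with 3 such genes. RpL17 had 20.6 in replicate 1 and 59.0 in replicate 2, RpL13A had 27.3 and 61.3, and RpS26 had 21.3 and 30.4. Of 75 mitochondrial ribosomal protein genes, 21 (28.0%, 18.2 to 39.6) had a weak peak only and 20 a thresholded peak, with mRpL39 at 45.5 in replicate 1 and 40.9 in replicate 2, mRpL47 at 19.8 and 44.0 and mRpL16 at 20.7 and 35.2. Of 54 translation factor genes, 16 (29.6%, 18.0 to 43.6) had a weak peak only and 12 a thresholded peak, with eEF2, the translocation factor, at 28.4 in replicate 1 and 34.5 in replicate 2 and eIF3a at 19.7 and 34.7. The peak that serves eIF4EHP is the one shared with CG18428. A peak at Dref, the gene of the factor that binds the DRE, had 21.0 in replicate 1 and 34.3 in replicate 2 and also lay at -179 from the TSS of RpL13.

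**Figure D5:**
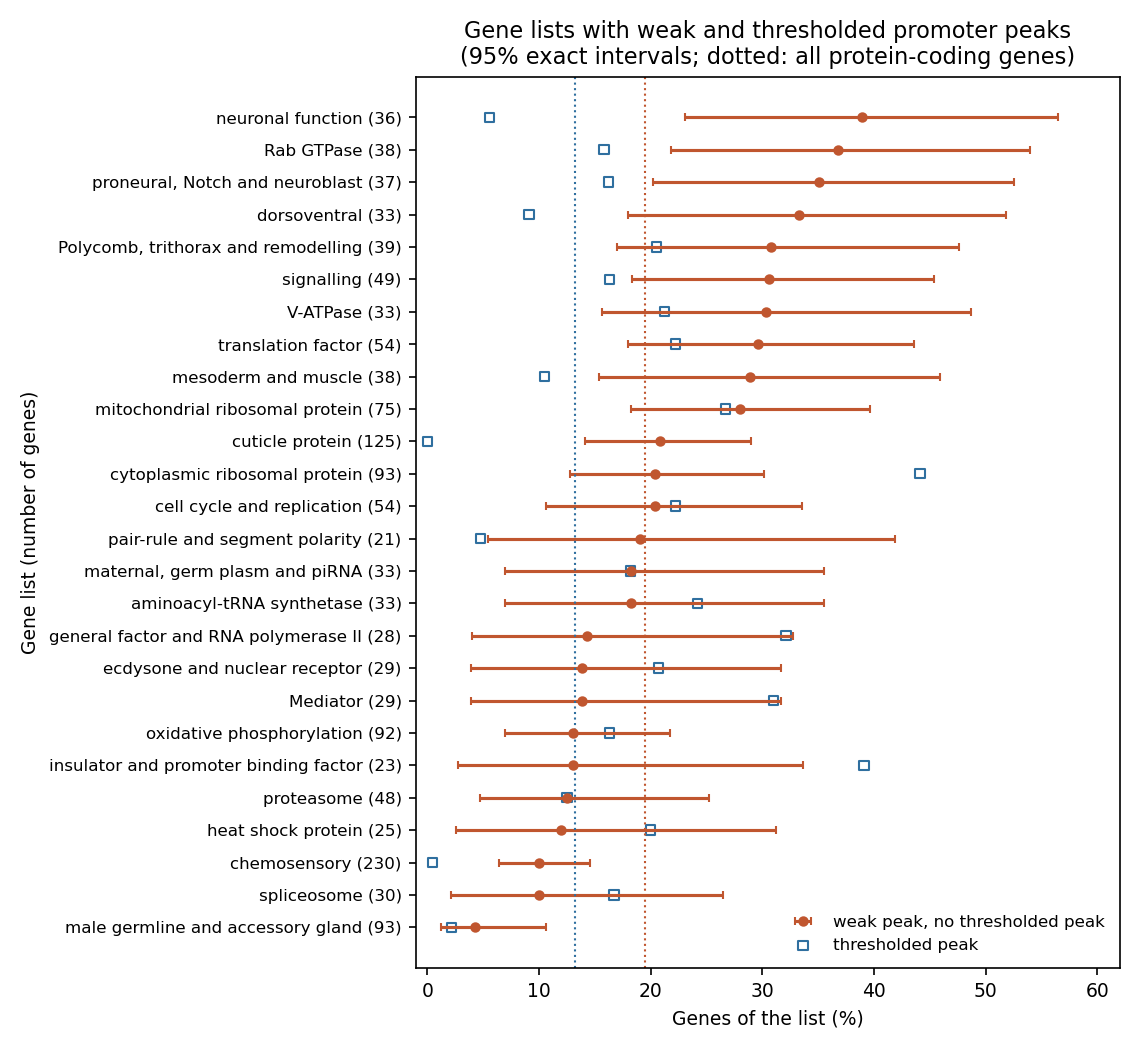
Share of each gene list (horizontal axis, %) with a weak peak and no thresholded peak (filled points with exact 95% intervals) and with a thresholded peak (open squares), for the lists of 20 or more genes, whose sizes stand in parentheses; dotted lines mark 19.5% and 13.2%, the same shares over all protein-coding genes. Neuronal function, at 38.9%, is at the top for weak peaks and has 5.56% thresholded, and cytoplasmic ribosomal proteins have 20.4% weak and 44.1% thresholded.

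The lists of the transcription machinery itself were short. Of 16 TFIID genes, 3 (18.8%, 4.05 to 45.6) had a weak peak only. They were Taf13 with 24.9 in replicate 1 and 18.4 in replicate 2, Taf12 with 22.8 and 9.28, and Taf11 with 21.9 and 10.9; replicate 1 was the higher one at each. Thresholded peaks lay at Taf2, Taf4 and Taf5, other ranked peaks at Taf9 and Tbp, and no ranked promoter peak at Taf1, Taf3, Taf6, Taf7, Taf8, Taf10, Taf10b and Taf12L. Of 28 genes of general factors and RNA polymerase II, 4 (14.3%) had a weak peak only and 9 a thresholded peak, with TfIIA-S at 35.4 in replicate 1 and 38.7 in replicate 2. Mediator genes had 4 of 29 (13.8%) with a weak peak only, among them MED19 with 30.6 and 15.7, and 9 with a thresholded peak. Integrator genes had 3 of 11 (27.3%, 6.02 to 61.0) with a weak peak only, led by IntS4 with 32.3 and 22.9.

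Among patterning genes, none of the 8 Hox genes had a thresholded peak, and 1 had a weak peak: Abd-B, with 15.4 in replicate 1 and 11.8 in replicate 2. Antp, Dfd and Scr had other ranked peaks, and lab, pb, Ubx and abd-A had no ranked promoter peak. Of 19 gap and terminal genes, 4 (21.1%) had a weak peak only and 2 (10.5%) a thresholded peak, with cic at 23.5 in replicate 1 and 9.43 in replicate 2 and cad at 18.6 and 10.7. Of 21 pair-rule and segment polarity genes, 4 (19.0%) had a weak peak only and 1 (4.76%) a thresholded peak, beside 19.5% and 13.2% of all genes, with en at 17.7 in replicate 1 and 22.6 in replicate 2 and hh at 17.8 and 10.8. Mesoderm and muscle genes had 11 of 38 (28.9%, 15.4 to 45.9) with a weak peak only and 4 with a thresholded one, with Zasp52 at 25.3 and 22.9 in replicates 1 and 2.

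Genes used late or outside the embryo split too. None of 125 cuticle protein genes had a thresholded peak, yet 26 (20.8%, 14.1 to 29.0) had a weak one, a share near that of all genes. The strongest, at Lcp65Ag3, had 38.5 in replicate 1 and 13.4 in replicate 2, with its summit 427 bp downstream in coding sequence. Cpr47Eg had 32.1 in replicate 1 and 15.1 in replicate 2, also at a coding summit. Chemosensory genes had 23 of 230 (10%, 6.45 to 14.6) with a weak peak only and 1 with a thresholded peak; Obp99b had 34.7 in replicate 1 and 23.1 in replicate 2. Male germline and accessory gland genes had 4 of 93 (4.30%, 1.18 to 10.6) with a weak peak only and 2 with a thresholded one; the strongest, Mst85C, had 40.3 in replicate 1 and 31.5 in replicate 2.

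The remaining lists had intervals that include 19.5%. Weak peaks only were found at 10 of 33 V-ATPase genes (30.3%), 5 of 17 actin and tubulin genes (29.4%), 11 of 54 cell cycle and replication genes (20.4%), 6 of 33 maternal, germ plasm and piRNA genes (18.2%) and 6 of 33 aminoacyl-tRNA synthetase genes (18.2%). They were found at 4 of 29 ecdysone and nuclear receptor genes (13.8%), 12 of 92 oxidative phosphorylation genes (13%), 3 of 23 insulator and promoter binding factor genes (13%), 6 of 48 proteasome genes (12.5%), 3 of 25 heat shock protein genes (12%) and 3 of 30 spliceosome genes (10%). Among their strongest members, Act5C had 45.8 in replicate 1 and 10.5 in replicate 2, with replicate 1 far higher. Hsc70-4, a constitutive chaperone gene, had 21.6 in replicate 1 and 50.5 in replicate 2, with replicate 2 far higher. The peak shared by mRpL39 and the proteasome gene Prosbeta2 lay between these head-to-head genes.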

How the data were processed

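Peaks came from the authors' deposited lists for 2 biological replicates and their pooled reads, on dm6 per the labels. Per the file headers and columns, the deposited values are the peak caller's signal, an IDR score and −log10 of the global IDR; no source used here gives the aligner or the peak caller. The pooled ranked lists also hold 4 columns of per-sample values that no name ties to a replicate, and these were not used. The control experiment that the labels name was not used here.

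Peaks on the arms were joined to 19630 TSSs of 13968 protein-coding genes (Ensembl release 115) by summit within 500 bp; lists overlapped at 1 bp or more. Replicate signals are those of the strongest overlapping peak of each ranked list. The 4 signal groups rank members by pooled signal. Shares have exact Clopper-Pearson 95% intervals and differences Newcombe intervals; with 1 group and peaks or genes as units, no test between conditions exists. Functions were tested on simulated peaks. Members, 31 gene lists and 10 elements were chosen with earlier results of these data known. The genes named were the strongest, median and weakest members, those beside the threshold, the extremes of the replicate ratio and the strongest of each list, with all TFIID and Hox genes. Alternatives were other windows, overlaps, lists, TSS assignments and single replicates. Scripts ran in Python 3.11.15; intervals used statsmodels 0.14.6 and scipy 1.17.1, tables pandas 2.3.3 and plots matplotlib 3.10.9.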

Additional observations from a re-analysis of the deposited data

How the results depend on the processing

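With a promoter window of 250 bp there were 2139 members, at 13.7% of genes, with 53.3% upstream and 32.4% head-to-head; with 1000 bp there were 5300, at 27.3% of genes, with 46.0% upstream and 25% head-to-head. The upstream share of thresholded promoter peaks was 83.0% at 250 bp and 76.1% at 1000 bp, above that of the members at each width. An overlap of at least 50% put weak peaks at 16.9% of genes. The other pooled ranked list put them at 21.7% of genes, with a median log2 ratio of -0.48. Giving each summit to its nearest TSS only, an alternative added after the data were seen, put them at 16.9% of genes. Of the element shares at genes with weak peaks only, 45 stayed inside the interval of the main setting and 5 left it. With the nearest TSS only, the DRE was at 7.02% and the Initiator at 19.0%. Ohler motif 7 was at 12.3% with 250 bp and 8.86% with 1000 bp, and GAGAGAG at 5.27% with 1000 bp. Element shares of the other gene classes were not computed for these settings.

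Requiring a match in 1 replicate alone gave 5107 to 6334 members, 27.7 to 33.1% of genes, 45.7 to 48.7% upstream and 24.4 to 27.1% head-to-head. More members are admitted by construction. Without replicate 1, the share over all genes was 33.1%. The pair-rule and segment polarity list went to 57.1%, cuticle proteins to 36.0% (27.6 to 45.1) and chemosensory genes to 29.6% (23.7 to 35.9). The cuticle and chemosensory intervals include 33.1%. Without replicate 2, mesoderm and muscle went to 50% and signalling to 46.9%, against 27.7% of all genes. Chemosensory genes were at 3.48% with 250 bp and 21.3% with 1000 bp, dorsoventral genes at 24.2% and 51.5%, and the 8 Hox genes at 12.5% and 50%. With these windows the share over all genes was 13.7% and 27.3%. Over all alternatives, 231 of the list shares stayed inside the interval of the main setting and 17 left it. Short lists have wide intervals, so the Hox and dorsoventral shares at 1000 bp count as inside. The share over all genes moved as well, so these counts do not measure stability. No paired analysis was possible because there is 1 group.

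The lists hold no depth, so a gene without a peak is not shown to be unbound.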
